A study of Mus musculus with 20 samples.

Results

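The 39 interferon-stimulated genes described here are mouse genes whose transcription interferons raise. They were chosen by name from 32053 gene names on the array, and each is represented by its brightest probe, the one with the highest mean log2 signal over all 20 arrays. All 39 were on the array and entered the tests, and 37 had a signal well above background on each of the 20 arrays. The exceptions were Oas3, which reached that mark on 11 arrays, and Irf7, which missed it on the control 2 array only.

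RNA came from the diaphragms of female C57Bl/6 mice that were 8 weeks old when 100 µL of fluid was placed in the pleural cavity, and it was collected 12 weeks later from 4 mice per group. All mice, controls included, received 0.5% bovine serum albumin (BSA) in saline. The control group received this vehicle alone. LFA mice also received 25 µg of long-fibre amosite, an amphibole asbestos, in which 100% of fibres were at least 5 µm long and 35.2% exceeded 20 µm, while SFA mice received the same dose of the ball-milled material with 3.1% of fibres at least 5 µm long. NTL and NTS mice received 5 µg of long or short carbon nanotubes, so the asbestos and nanotube doses were not matched by mass. The comparisons ask how the genes differ with each fibre, with fibre length and between the materials. No mouse line with an altered gene was used, and the whole diaphragm was measured, so muscle, pleural surface and any lesion share each sample.

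Interferons are secreted proteins that cells release on sensing foreign or misplaced nucleic acid (types I and III) or that lymphocytes release on activation (type II). Type I interferon acts through JAK kinases on a complex with STAT2 and IRF9 that binds the interferon-stimulated response element (ISRE), while type II acts mainly through the gamma-activated sequence (GAS). The products block viral replication, sense nucleic acid, draw lymphocytes and dampen the signal itself, and macrophages are among the cells that express them strongly.

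The 250 bases before the transcription start were searched on both strands for an ISRE core, GAAANNGAAA, and a GAS core, TTCNNNGAA. RefSeq (GRCm38.p6) promoters were at hand for 28 of the 39 genes and not for Mx1, Mx2, Zbp1, Usp18, Ifi27l2a, Rtp4, Iigp1, Oas2, Ifi204, Parp14 and Dhx58. The ISRE core was found in 14 of the 28 (50%), against 936 of 27025 genes (3.46%), namely Isg15, Ifit1, Ifit3, Rsad2, Bst2, Oas1a, Oas3, Stat2, Gbp2, Gbp3, Irgm1, Igtp, Cxcl10 and Socs1. The GAS core was found in 6 (21.4%), Ifit2, Bst2, Oas1a, Irf1, Irf8 and Igtp, against 8.13% of all genes, and in Bst2 it overlapped an ISRE match. The genes were chosen as interferon-stimulated ones, so shares above those of all genes are a description and not a separate result. The 5 promoters below belong to the genes that were both called in a long-fibre group, by the rule given further on, and hold the ISRE core. They are written 5′ to 3′ on the strand of the gene and end at the base before the start, with ISRE matches on either strand in capitals, where overlapping matches run together.
Oas1a (chr5:120907526-120907645, minus strand): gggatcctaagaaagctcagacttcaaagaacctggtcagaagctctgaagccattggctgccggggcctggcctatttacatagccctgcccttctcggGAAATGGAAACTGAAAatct
Oas3 (chr5:120777660-120777779, minus strand): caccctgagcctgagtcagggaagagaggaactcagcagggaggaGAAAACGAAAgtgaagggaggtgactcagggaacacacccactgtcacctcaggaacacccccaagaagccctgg
Socs1 (chr16:10785537-10785656, minus strand): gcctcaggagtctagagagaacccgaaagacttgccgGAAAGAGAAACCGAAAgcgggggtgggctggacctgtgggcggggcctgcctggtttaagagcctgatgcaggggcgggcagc
Ifit3 (chr19:34583279-34583528, plus strand): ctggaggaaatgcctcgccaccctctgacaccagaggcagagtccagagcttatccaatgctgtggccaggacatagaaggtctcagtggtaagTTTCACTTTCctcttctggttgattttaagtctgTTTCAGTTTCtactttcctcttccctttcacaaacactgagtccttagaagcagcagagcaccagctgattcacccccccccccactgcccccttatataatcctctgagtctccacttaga
Cxcl10 (chr5:92348890-92349139, minus strand): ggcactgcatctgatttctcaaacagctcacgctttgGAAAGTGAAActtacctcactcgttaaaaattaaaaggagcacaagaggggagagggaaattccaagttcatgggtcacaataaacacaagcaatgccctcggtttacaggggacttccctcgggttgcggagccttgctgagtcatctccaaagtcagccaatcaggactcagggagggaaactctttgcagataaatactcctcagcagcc
The match lay 5 to 20 bases before the start in Oas1a, 66 to 75 in Oas3 and 68 to 83 in Socs1, 113 to 122 and 147 to 156 in Ifit3 and 204 to 213 in Cxcl10, where 250 bases are shown. Of the 28 genes, 8 were called in LFA or NTL against control and 5 of these held the ISRE core, as did 9 of the other 20. Among the genes with a promoter, the median change in LFA was 1.11 with the ISRE core and 0.84 without it, and in NTL it was 0.80 and 0.82.

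Signals are given as log2 of the deposited intensity relative to the 75th percentile of the same array, so 0 is that percentile, and levels of different probes are not compared. The labelled tissue was borne out by 10 of 10 skeletal muscle markers well above background on every array, with a mean log2 signal of 6.04 to 8.10. The signal at the 75th percentile ran from 294 to 996 intensity units, and the share of spots well above background from 53.0% to 68.1%, both lowest on control 2. That array held the highest control value for 27 of the 39 genes. The 7 liver transcripts listed, among them Alb, spread widely within every group, with array means from -3.28 to 8.52 relative to the control mean, and were highest on NTS 3, NTS 4, LFA 3 and LFA 1. The arrays lay on 3 slides, each scanned once, which held 1 or more arrays of every group except NTL on slide 3, NTS on slide 2 and SFA on slide 3.

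The genes were higher on the arrays of both long-fibre groups. Against control, all 39 were higher in LFA, with a median log2 change of 1.09, and 38 of 39 were higher in NTL, with a median of 0.97 and Cxcl9 as the exception, where all 36931 probes tested had medians of -0.28 and -0.25. In SFA 37 genes were higher with a median of 0.35, and in NTS 21 were higher with a median of 0.03. Averaged over the 39 genes, the log2 signal relative to the control mean was 0.63, 1.55, 1.05 and 1.51 on the LFA arrays and 0.87, 1.21, 0.73 and 1.48 on the NTL arrays. It was -0.35, 0.51, -0.22 and 0.05 on the control arrays, 0.50, 0.00, 0.95 and 0.14 on the SFA arrays, and -0.17, -0.49, 0.26 and 0.62 on the NTS arrays. All LFA and NTL means lay above the control means, while SFA 3 lay above 1 LFA and 2 NTL arrays and NTS 4 lay just below LFA 1.

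**Figure D1:**
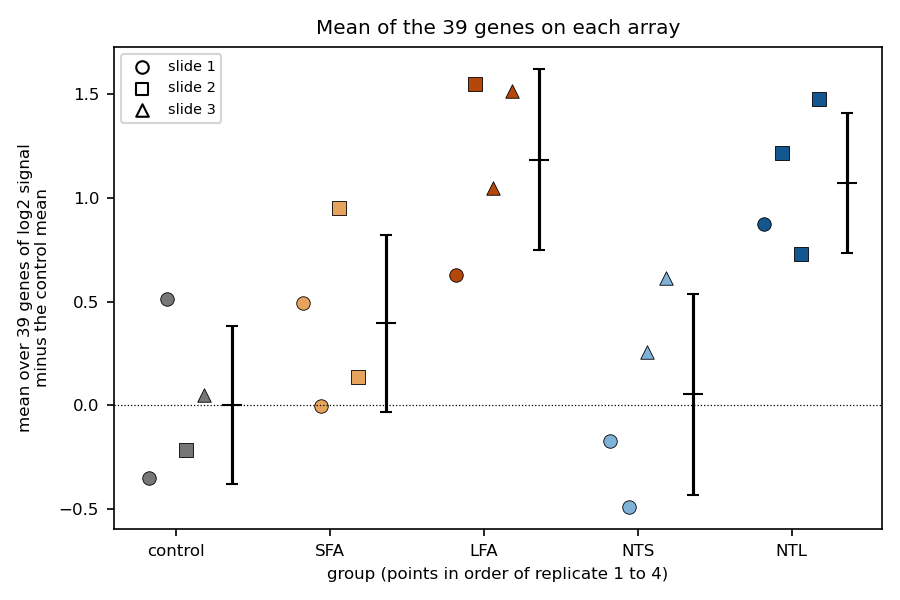
Mean over the 39 genes of the log2 signal minus the control mean (y axis) for each array, by group (x axis), with the slide as the symbol and the group mean and SD of 4 arrays as a black bar. The LFA arrays lie between 0.63 and 1.55 and the NTL arrays between 0.73 and 1.48, above the highest control array at 0.51, and the SFA arrays reach 0.95.

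A gene was called when its log2 change was at least 1 and its adjusted p under 0.05 in a limma fit over all 36931 probes. In LFA 10 of 39 genes rose by this rule, where 2.22% of all probes (2.86% of the brightest probes of 23986 gene names) were called higher. These were Mx1, Ifi44, Oas1a, Oas2, Oas3, Oasl1, Dhx58, Zbp1, Ifi204 and Socs1. In NTL 12 of 39 rose, where 3.63% of all probes (4.52% of gene names) did, namely Ifit3, Mx1, Ifi44, Oas1a, Oas2, Oas3, Oasl1, Dhx58, Zbp1, Irf8, Cxcl10 and Socs1. Oas3 passed the filter on dim probes mainly through the long-fibre arrays, and without it the counts were 9 and 11. No gene of the 39 fell by the rule in either group. The comparisons share the control arrays, so the overlap of these lists is not a separate result. A further 12 genes in LFA and 6 in NTL changed by at least 1 without passing the adjusted p. Of all 36931 probes 6076 in LFA and 4001 in NTL did so, counted in either direction.

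These counts moved with single arrays. The LFA count was 2 without control 1 or LFA 2, 3 without LFA 4, 4 without control 3 and 6 without control 4, and the NTL count was 5 without NTL 4 and 7 without control 1, while without control 2 the counts were 13 and 14. Oas1a and Zbp1 stayed called in LFA in all 20 fits that left out an array, as did Mx1, Oas1a, Oasl1, Zbp1 and Socs1 in NTL. Of the other calls, the least stable were Ifi204, Dhx58 and Oas3 in LFA, called in 5, 6 and 7 of these fits, and Ifit3 in NTL, called in 6, while the rest held in 14 to 18 fits in LFA and 13 to 19 in NTL. With the slide as a block the counts were 5 in LFA (Mx1, Oas1a, Oas2, Oasl1 and Zbp1) and 6 in NTL (Mx1, Oas1a, Oasl1, Zbp1, Cxcl10 and Socs1). Calls fell over the whole array too. Of all 36931 probes, 607 were then called higher in LFA in place of 821, and 846 in NTL in place of 1340. Within slides, the median change of the 39 genes from control to LFA was 0.36 on slide 1, 1.60 on slide 2 and 1.27 on slide 3, and from control to NTL it was 0.67 on slide 1 and 1.27 on slide 2. Every LFA array lay above every control array for 10 of the 39 genes, against 4.61% of all probes, and every NTL array did for 14, against 6.35%.

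**Figure D2:**
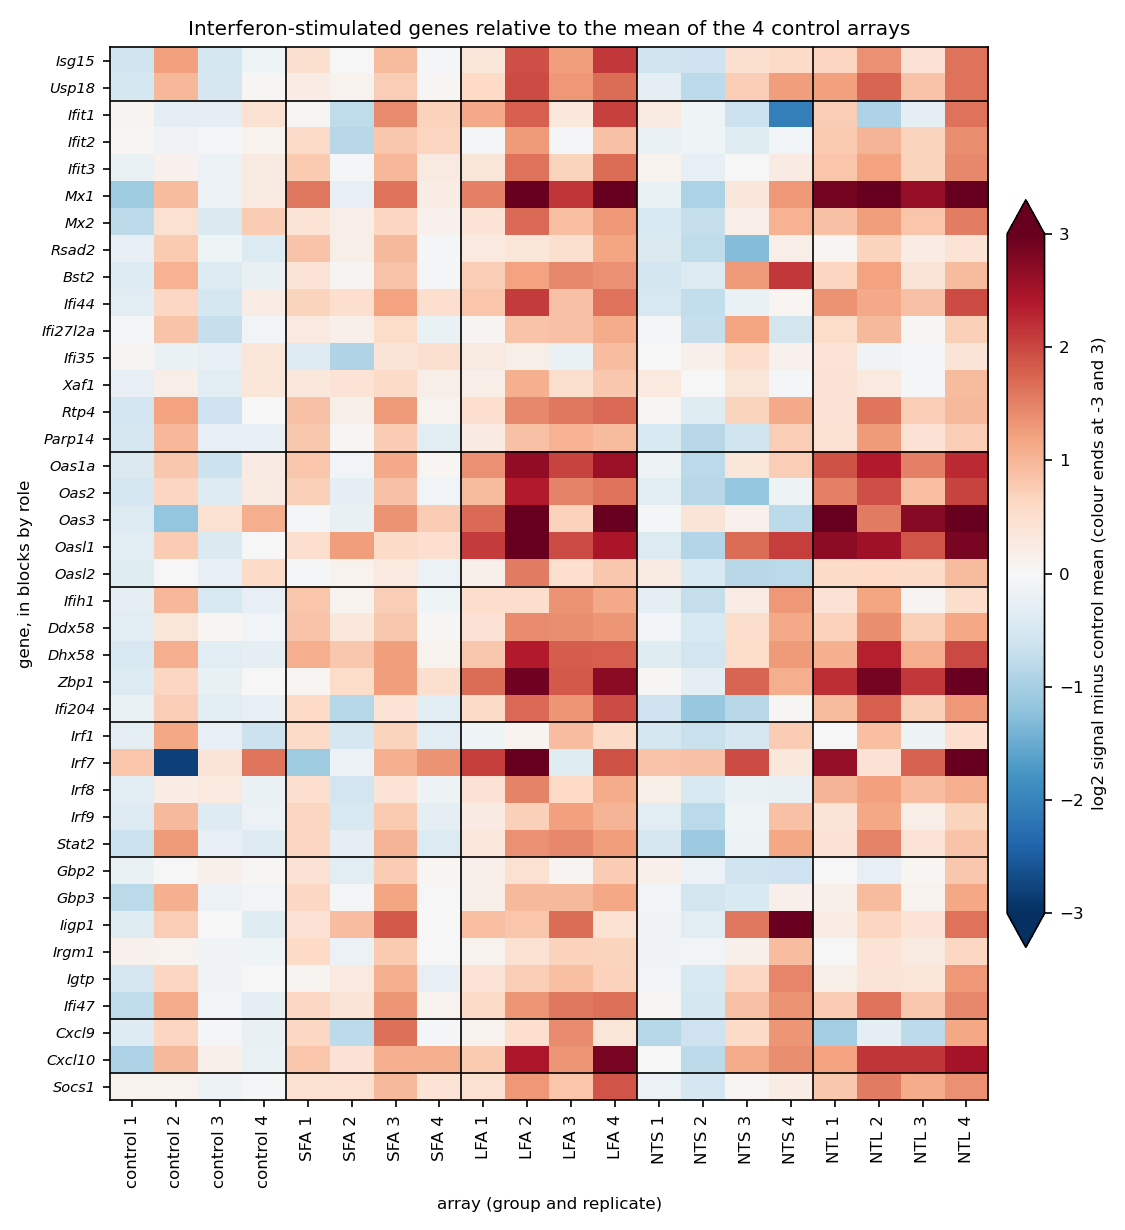
Log2 signal of the 39 genes (rows, in blocks by role) on each of the 20 arrays (columns, by group and replicate) minus the mean of the 4 control arrays, with red above and blue below that mean and colours ending at -3 and 3. LFA 2, LFA 4 and NTL 4 are above the control mean for 39 of 39 genes, as is SFA 3, and control 2 is for 34.

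The antiviral effectors comprised 13 genes, of which 2 rose in LFA (Mx1 and Ifi44) and 3 in NTL (Ifit3, Mx1 and Ifi44), with medians of 1.08 and 0.80. Mx1 (probe at chr16:97668644-97668703, minus strand, NCBI37 as for all probe positions) encodes a dynamin-like GTPase against orthomyxoviruses, and C57BL/6 mice carry an allele with an internal deletion, of which the RNA is measured here. Its log2 signal was -3.91, -1.88, -3.01 and -2.57 on control arrays 1 to 4, -1.33, 1.01, -0.71 and 1.09 on LFA arrays and 0.02, 0.78, -0.24 and 0.64 on NTL arrays. It was -1.25, -3.08, -1.22 and -2.63 on SFA arrays and -3.05, -3.78, -2.51 and -1.54 on NTS arrays. All 8 long-fibre arrays lay above all controls, and LFA 1 lay just below SFA 1 and SFA 3. The log2 change was 2.86 ± 0.61 (SE, n = 4 and 4) in LFA, 7.25-fold, with an adjusted p of 0.0157 by limma, and 3.14 ± 0.61 in NTL, 8.84-fold, with an adjusted p of 0.00448.

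Ifi44 (probe at chr3:151394035-151394094, minus strand) encodes an interferon-induced cytoplasmic protein. It measured -0.63, 0.31, -0.83 and -0.08 on control arrays, 0.53, 1.79, 0.58 and 1.31 on LFA arrays and 1.05, 0.83, 0.58 and 1.64 on NTL arrays, and neither long-fibre group overlapped control. On SFA arrays it measured 0.37, 0.18, 0.90 and 0.21 and on NTS arrays -0.79, -1.04, -0.51 and -0.25, so SFA overlapped LFA whereas NTS stayed below every NTL array. It rose by 1.36 ± 0.33 in LFA (adjusted p = 0.0308, limma) and by 1.33 ± 0.33 in NTL (adjusted p = 0.021, limma).

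The IFIT proteins bind viral RNA. Ifit3 (probe at chr19:34663105-34663164, plus strand) gave 1.26, 1.60, 1.28 and 1.73 in control, 1.82, 3.09, 2.14 and 3.15 in LFA and 2.30, 2.67, 2.13 and 2.92 in NTL. The SFA values were 2.24, 1.41, 2.47 and 1.74 and the NTS values 1.57, 1.23, 1.49 and 1.72. Every long-fibre array exceeded every control array, and the changes were 1.08 ± 0.31 in LFA (adjusted p = 0.0558, not called) and 1.03 ± 0.31 in NTL (adjusted p = 0.0495, called, but in only 6 of the 20 fits that left out an array) by limma. The LFA and NTL changes differed by 0.05 ± 0.31.

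Ifit2 (probe at chr19:34650244-34650303, plus strand) gave -1.05, -1.22, -1.15 and -1.01 in control, -0.32, -0.08, -0.45 and 0.29 in NTL and -1.32, -1.23, -1.46 and -1.20 in NTS, with every NTL array above the control and NTS arrays. In LFA it gave -1.17, 0.18, -1.16 and -0.22, and LFA 1 and LFA 3 lay among the controls. The SFA values were -0.53, -1.93, -0.30 and -0.45, with SFA 2 the lowest of all arrays. Ifit2 passed the rule between NTL and NTS only (1.16 ± 0.35, adjusted p = 0.044, limma), where it stayed called in 7 of the 20 fits that left out an array, and it changed by 0.51 and 0.97 against control.

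The other effectors did not pass in any comparison. Mx2 changed by 1.08 in LFA and 1.12 in NTL, Bst2, the membrane tether of budding virions, by 1.19 and 0.80, and Rtp4 by 1.31 and 0.93. Ifit1 changed by 1.32 ± 0.59 in LFA and 0.30 ± 0.59 in NTL. Rsad2 (viperin), Ifi27l2a, Ifi35, Xaf1 and Parp14 changed by 0.29 to 0.78 in LFA and by 0.16 to 0.73 in NTL. The genes of the ISG15 system, Isg15, a ubiquitin-like modifier, and Usp18, the protease that removes it, changed by 1.42 ± 0.47 and 1.38 ± 0.43 in LFA and 1.02 ± 0.47 and 1.37 ± 0.43 in NTL, with adjusted p by limma from 0.061 to 0.192. The second probe of Isg15 passed the rule in LFA (1.38 ± 0.37, adjusted p = 0.0421, limma), which the brighter one missed (adjusted p = 0.0822).

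**Figure D3:**
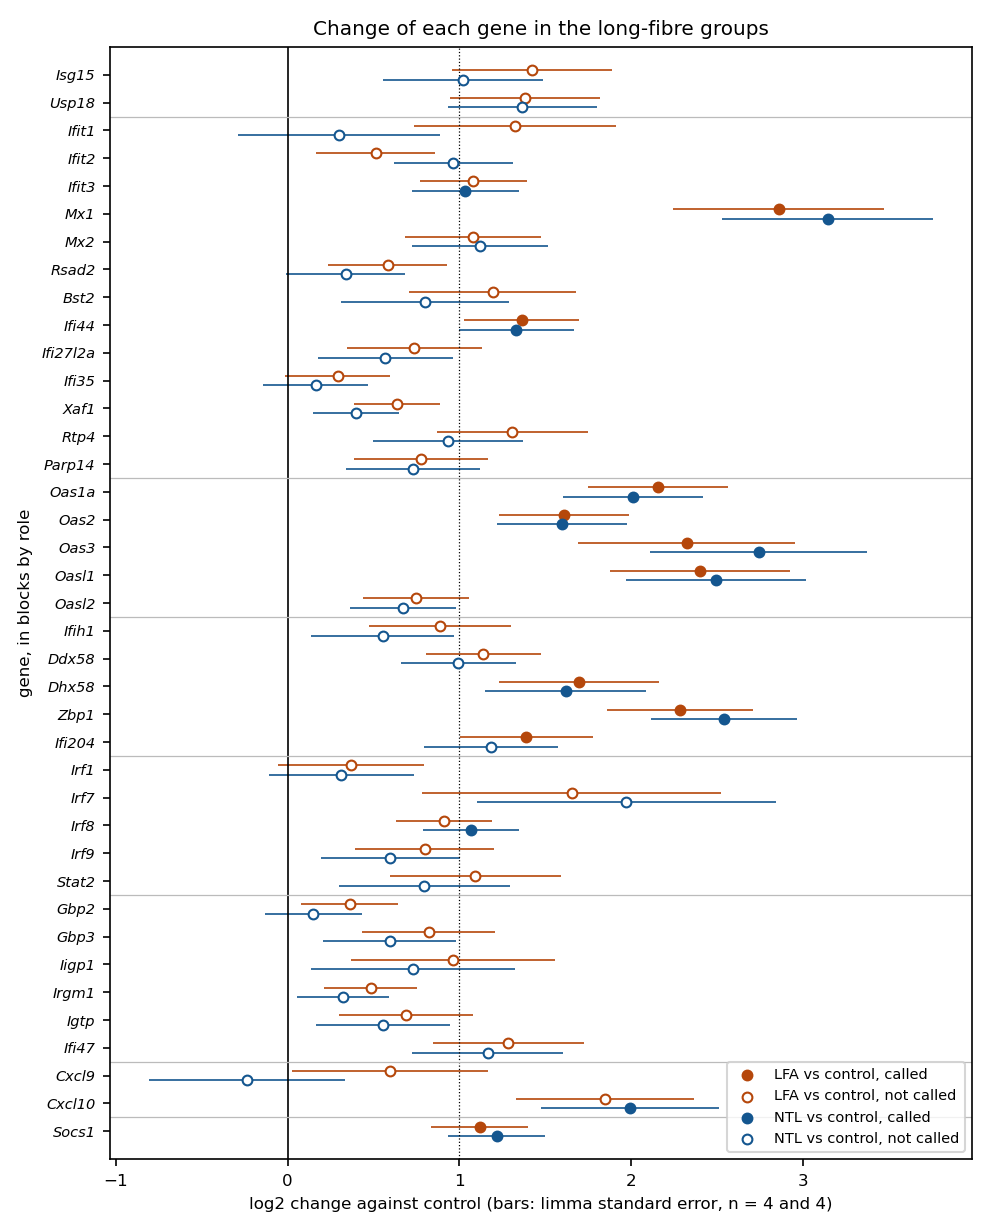
Log2 change against control (x axis) of each of the 39 genes (y axis, in blocks by role) in LFA and NTL, with filled points for called genes, bars for the limma standard error and a dotted line at a change of 1. The largest changes belong to Mx1, at 2.86 in LFA and 3.14 in NTL, and the lowest to Ifi35 in LFA (0.29) and Cxcl9 in NTL (-0.24).

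The OAS family, enzymes that make 2′-5′ oligoadenylate when they meet double-stranded RNA and so switch on RNase L, was the role with the highest medians, 2.16 in LFA and 2.01 in NTL. Leaving aside Oas3, which is described by its levels, 3 of the other 4 members rose in each group, with medians of 1.88 and 1.80. Oas1a (probe at chr5:121346735-121346794, minus strand), with its ISRE matches next to the start, measured 1.65, 2.89, 1.44 and 2.33 in control, 3.44, 4.73, 4.10 and 4.64 in LFA and 3.98, 4.45, 3.59 and 4.31 in NTL. In SFA it measured 2.90, 1.995, 3.21 and 2.13 and in NTS 1.92, 1.28, 2.44 and 2.80. All 8 long-fibre arrays exceeded all 12 others. The changes were 2.16 ± 0.41 in LFA, 4.46-fold, and 2.01 ± 0.41 in NTL, 4.03-fold, with adjusted p of 0.00745 and 0.00599 by limma. A second Oas1a probe also rose, by 1.83 ± 0.38 in LFA and 2.06 ± 0.38 in NTL.

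Oas2 (probe at chr5:121180343-121180402, minus strand) showed the same separation. Its values were 1.04, 2.21, 1.19 and 1.85 in control, 2.53, 3.94, 3.06 and 3.19 in LFA and 3.09, 3.51, 2.49 and 3.60 in NTL, against 2.29, 1.30, 2.46 and 1.49 in SFA and 1.25, 0.73, 0.41 and 1.42 in NTS. The lowest long-fibre array, NTL 3, stood just above the highest of the other 12 arrays, SFA 3. Oas2 rose by 1.61 ± 0.38 in LFA (adjusted p = 0.0252) and by 1.60 ± 0.38 in NTL (adjusted p = 0.0154, limma).

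Oas3 (probe at chr5:121203598-121203657, minus strand) was dim. It was well above background on all 4 LFA and all 4 NTL arrays, on 1 control and 2 SFA arrays and on no NTS array. The measured values were -5.62, -6.37, -4.75 and -4.13 in control, -3.51, -1.29, -4.52 and -2.25 in LFA and -2.20, -3.65, -2.49 and -1.55 in NTL, and -5.26, -5.43, -3.88 and -4.45 in SFA and -5.27, -4.83, -5.08 and -6.00 in NTS. NTL arrays exceeded all control, SFA and NTS arrays, whereas LFA 3 fell within control. Since it passed the filter on dim probes mainly through the groups where it was high and its control level was mostly not above background, its fitted changes of 2.32 ± 0.63 in LFA and 2.74 ± 0.63 in NTL are a description. With normexp background correction they were 0.70 and 0.81 and not called, and the LFA call held in 7 of the 20 fits that left out an array. NTL was at least 5.52-fold higher than NTS, with the lowest signal well above background taken as the bound for NTS where it was higher.

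Oasl1 (probe at chr5:115387861-115387920, plus strand) encodes an OAS-like protein without synthetase activity. It gave -0.35, 0.77, -0.44 and 0.01 in control, 2.10, 3.09, 1.96 and 2.45 in LFA and 2.68, 2.54, 1.89 and 2.86 in NTL. The SFA arrays gave 0.49, 1.26, 0.58 and 0.51 and the NTS arrays -0.40, -0.87, 1.67 and 2.08. NTS thus split into a low pair on slide 1 and a high pair on slide 3, and NTS 4 exceeded LFA 3 and NTL 3. The changes against control were 2.40 ± 0.53 in LFA (adjusted p = 0.0172, limma) and 2.49 ± 0.53 in NTL (adjusted p = 0.00764, limma). Oasl2 (probe at chr5:115362168-115362227, plus strand) gave 1.57, 1.95, 1.69 and 2.51 in control, 2.19, 1.46, 1.10 and 1.11 in NTS and 2.503, 2.52, 2.51 and 2.88 in NTL, and passed only between NTL and NTS (1.14 ± 0.31, adjusted p = 0.0282, limma). Its LFA values were 2.08, 3.48, 2.43 and 2.73 and its SFA values 1.89, 2.05, 2.23 and 1.74, and the LFA change against control was 0.75 ± 0.31.

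Among the 5 nucleic acid sensors 3 rose in LFA (Dhx58, Zbp1 and Ifi204) and 2 in NTL (Dhx58 and Zbp1). Zbp1 (probe at chr2:173039307-173039366, minus strand), which binds Z-form nucleic acid and can start necroptosis, measured -0.65, 0.40, -0.47 and -0.24 in control, 1.43, 2.68, 1.60 and 2.47 in LFA and 1.97, 2.62, 1.88 and 2.73 in NTL. It measured -0.18, 0.31, 1.01 and 0.23 in SFA and -0.19, -0.52, 1.51 and 0.85 in NTS. Both long-fibre groups lay above all control and SFA arrays, and NTS 3 exceeded LFA 1. The change was 2.29 ± 0.43 in LFA, 4.88-fold (adjusted p = 0.0068), and 2.54 ± 0.43 in NTL, 5.82-fold (adjusted p = 0.00161, limma), and the second Zbp1 probe gave 2.45 and 2.41.

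Dhx58 (LGP2; probe at chr11:100556271-100556330, minus strand), a helicase that modulates RIG-I and MDA5, gave -1.89, -0.33, -1.73 and -1.72 in control, -0.62, 0.96, 0.40 and 0.38 in LFA and -0.34, 0.91, -0.32 and 0.57 in NTL. SFA gave -0.32, -0.61, -0.16 and -1.30 and NTS -1.78, -1.99, -0.87 and -0.15. Control 2 stood above the other controls and reached the lowest LFA and NTL arrays. Dhx58 rose by 1.70 ± 0.47 in LFA (adjusted p = 0.0468, limma) and 1.62 ± 0.47 in NTL (adjusted p = 0.0404, limma), but stayed called in only 6 of the 20 LFA and 13 of the 20 NTL fits that left out an array.

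Ifi204 (probe at chr1:175677647-175677706, minus strand), a DNA-binding member of the HIN200 family, gave 3.06, 4.01, 2.95 and 3.02 in control, 3.83, 4.96, 4.59 and 5.23 in LFA and 4.20, 5.05, 3.97 and 4.56 in NTL. The SFA arrays gave 3.86, 2.40, 3.67 and 2.93 and the NTS arrays 2.63, 2.11, 2.43 and 3.30. NTL lay above all NTS arrays, and control 2 lay above 1 array of each long-fibre group. The change was 1.39 ± 0.39 in LFA (adjusted p = 0.0495, limma), called in 5 of 20 fits that left out an array, and 1.18 ± 0.39 in NTL (adjusted p = 0.0687, limma). Ddx58, which encodes RIG-I, changed by 1.14 ± 0.33 in LFA and 0.99 ± 0.33 in NTL, with every array of both groups above every control, and Ifih1, which encodes MDA5, by 0.89 ± 0.41 and 0.55 ± 0.41, and neither passed.

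**Figure D4:**
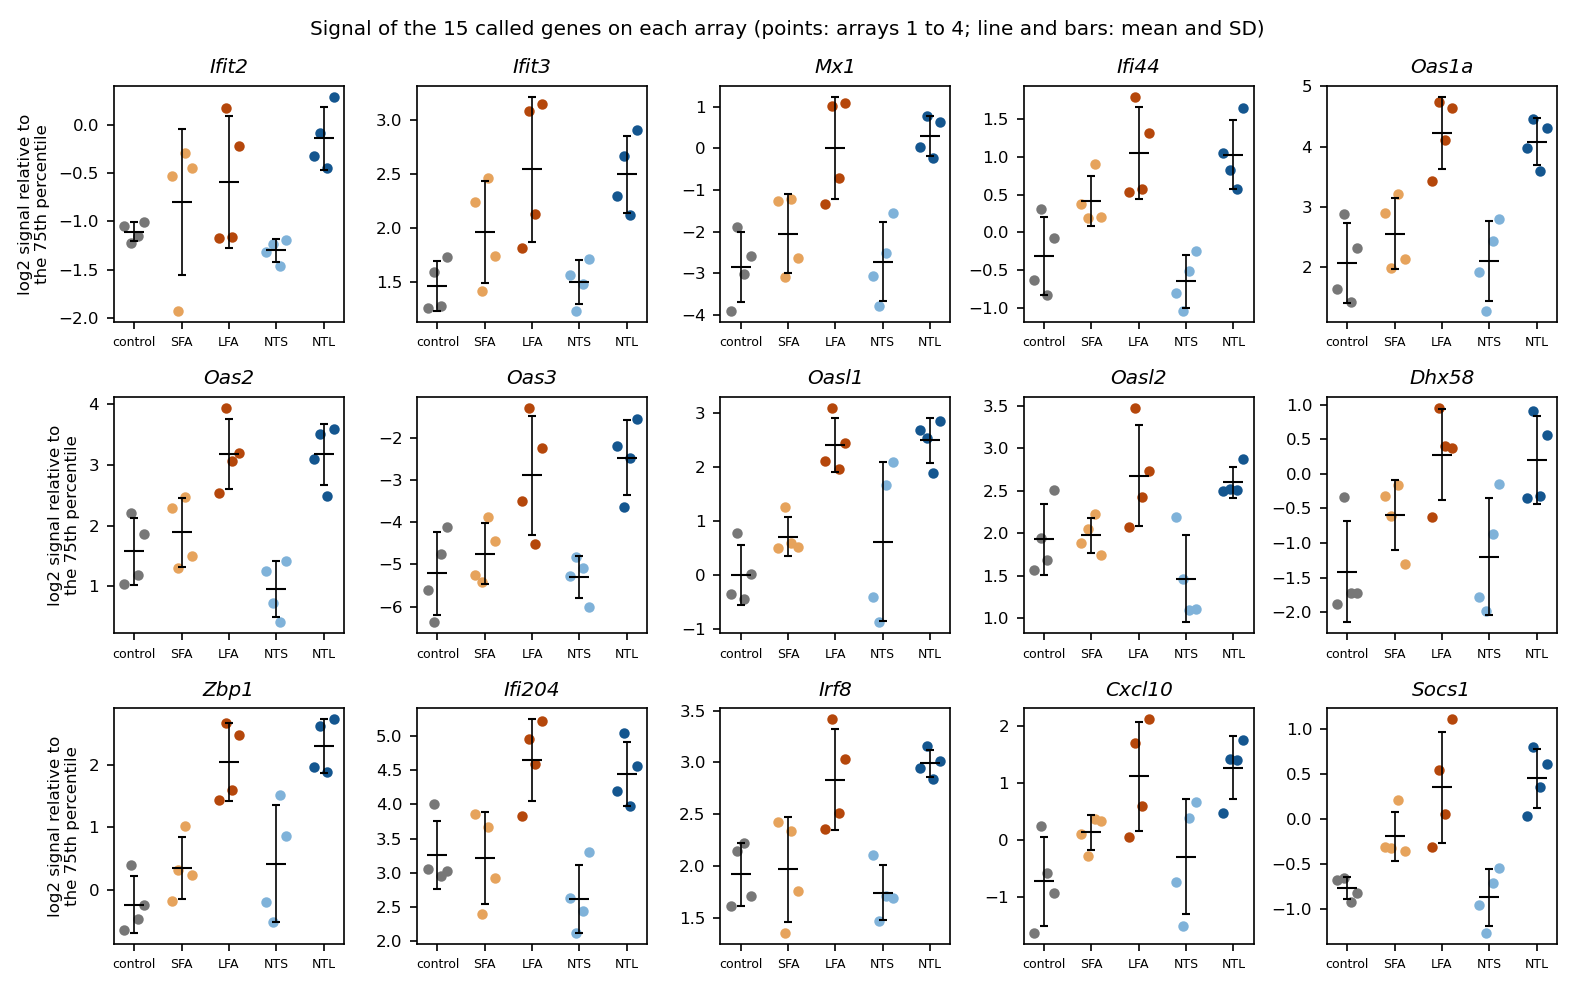
Log2 signal relative to the 75th percentile of the array (y axes, 1 scale per gene) on the 4 arrays of each group (x axes) for the 15 genes called in LFA or NTL against control or in NTL against NTS, with the mean and SD of 4 arrays in black. For Oas1a and Oas2 all LFA and NTL points lie above all points of the other 3 groups, and for Oasl1 the NTS points fall into a low and a high pair.

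Of the 5 transcription factors only Irf8 passed, in NTL. Irf8 (probe at chr8:123280324-123280383, plus strand), which guides the development of macrophages and dendritic cells, measured 1.61, 2.14, 2.22 and 1.71 in control, 2.36, 3.42, 2.51 and 3.03 in LFA and 2.95, 3.16, 2.84 and 3.01 in NTL. It measured 2.42, 1.35, 2.34 and 1.76 in SFA and 2.10, 1.47, 1.71 and 1.69 in NTS. Both long-fibre groups lay above control, and the NTL arrays lay above all SFA and NTS arrays too. The change was 1.07 ± 0.28 in NTL (adjusted p = 0.0258, limma) and 0.91 ± 0.28 in LFA (adjusted p = 0.0686, limma). Stat2 and Irf9, partners in the ISRE-binding complex, changed by 1.09 ± 0.50 and 0.80 ± 0.40 in LFA and by 0.80 ± 0.50 and 0.60 ± 0.40 in NTL. Irf7, the factor that amplifies type I interferon production, changed by 1.65 ± 0.87 and 1.97 ± 0.87 with control arrays from -4.74 to -0.34, and Irf1 by 0.37 ± 0.42 and 0.31 ± 0.42. None of these 4 passed.

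None of the 6 interferon-inducible GTPases, which act at the membranes around intracellular pathogens and are mostly induced by type II interferon, passed in any comparison. Their medians were 0.76 in LFA and 0.58 in NTL, with Ifi47 the highest (1.28 ± 0.44 and 1.16 ± 0.44) and Gbp2 the lowest (0.36 ± 0.28 and 0.15 ± 0.28). Iigp1 measured 0.44, 0.22, 2.13 and 3.52 on NTS arrays and 0.18, 1.29, 0.53 and 0.17 on control arrays. NTS 3 and NTS 4 were above all controls for Iigp1 and NTS 1 and NTS 2 were not. Gbp3, Irgm1 and Igtp changed by 0.48 to 0.82 in LFA and by 0.32 to 0.60 in NTL.

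The CXCR3 ligands, chemokines that draw activated T and NK cells, were Cxcl9 and Cxcl10. Cxcl10 (probe at chr5:92775781-92775840, minus strand) gave -1.64, 0.24, -0.57 and -0.93 in control, 0.06, 1.70, 0.60 and 2.13 in LFA and 0.47, 1.43, 1.41 and 1.76 in NTL. SFA gave 0.11, -0.29, 0.38 and 0.33 and NTS -0.74, -1.51, 0.39 and 0.67. NTL lay above all control and SFA arrays, while control 2 exceeded LFA 1 and NTS 4 exceeded NTL 1. Cxcl10 rose by 1.99 ± 0.52 in NTL (adjusted p = 0.0247, limma) and changed by 1.85 ± 0.52 in LFA (adjusted p = 0.0503, limma). Cxcl9 changed by 0.60 ± 0.57 in LFA and -0.24 ± 0.57 in NTL, and neither passed. The difference between the changes of these 2 genes was not tested.

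Socs1 (probe at chr16:10783951-10784010, minus strand), the inhibitor that binds JAK kinases and closes the loop, rose in both long-fibre groups. It measured -0.67, -0.65, -0.92 and -0.81 in control, -0.30, 0.55, 0.06 and 1.12 in LFA and 0.04, 0.81, 0.36 and 0.61 in NTL. It measured -0.31, -0.31, 0.22 and -0.35 in SFA and -0.95, -1.26, -0.71 and -0.53 in NTS. The controls lay within a narrow range, and every LFA, NTL and SFA array exceeded them, the only gene of the 39 for which this held in SFA, where it held for 0.56% of all probes. The changes were 1.12 ± 0.28 in LFA (adjusted p = 0.0335), 1.22 ± 0.28 in NTL (adjusted p = 0.0132) and 0.57 ± 0.28 in SFA (adjusted p = 0.999, limma).

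Short fibres gave no calls. In SFA 0 of 39 genes were called, where 0% of all probes were, and 1 had an unadjusted p under 0.05 by limma (Ifi44, 0.72 ± 0.33), against 2.28% of all probes. SFA 3 held the highest SFA value for 31 of the 39 genes. In NTS 0 were called, where again 0% of all probes were, and 0 had an unadjusted p under 0.05 by limma, against 3.49% of all probes. The NTS values ran from -0.64 (Ifi204) to 1.03 (Iigp1). On slide 1 the median of the 39 genes was 0.45 lower in NTS than in control, and on slide 3 it was 0.39 higher. The NTS 3 and NTS 4 arrays of slide 3 also held liver transcripts at 8.52 and 8.30 relative to the control mean, and the part of these in the NTS values was not tested. In LFA the 2 arrays with the highest means over the 39 genes, LFA 2 and LFA 4, had liver transcripts at -2.33 and -2.05.

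Fibre length was compared within each material. The long and short amosite came from the same batch. The short nanotubes were bought, whereas the long ones were made in a university laboratory. Length and source therefore cannot be told apart between NTL and NTS. Between NTL and NTS 12 of 39 genes rose, where 4.89% of all probes (5.96% of gene names) were called higher, and without NTS 4 the count was 19. These were Ifit2, Mx1, Ifi44, Oas1a, Oas2, Oas3, Oasl1, Oasl2, Zbp1, Ifi204, Irf8 and Socs1. The changes of the called genes ran from 1.14 (Oasl2) to 3.02 (Mx1), with Oas2 at 2.22 ± 0.38 (adjusted p = 0.00125, limma), Ifi204 at 1.83 ± 0.39 and Ifi44 at 1.67 ± 0.33. All 4 OAS family members other than Oas3 were among them. With the slide as a block 5 genes were called (Mx1, Ifi44, Oas1a, Oas2 and Socs1), where 660 of all 36931 probes were called higher in place of 1807. On slide 1, the only slide with both groups, the median difference was 1.02.

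Between LFA and SFA 0 of 39 genes passed limma, where 1.03% of all probes were called higher. All 39 were higher in LFA, with a median of 0.67, where all probes tested had a median of -0.17. By limma 11 of the 39 had an unadjusted p under 0.05, against 4619 of all 36931 probes, of which 1772 were higher. The nearest to the threshold were Oas1a (1.67 ± 0.41, adjusted p = 0.0546), Zbp1 (1.70 ± 0.43, adjusted p = 0.0623) and Ifi204 (1.44 ± 0.39, adjusted p = 0.0944). The methods' test, which compares all groups at once and allows unequal variances, passed 7 with a change of at least 2-fold, Mx1, Oas1a, Oas2, Oas3, Oasl1, Zbp1 and Ifi204, though its p does not address this pair of groups alone. Leaving out LFA 1 or NTS 2 gave 2 calls by limma, and leaving out control 2, NTS 3 or NTS 4 gave 1.

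The difference between the length effects, LFA minus SFA less NTL minus NTS, was called for 0 of 39 genes, where 0% of all probes were called. The nanotube part of it also holds the difference in source. By limma 1 gene had an unadjusted p under 0.05 (Ifi44, -1.03 ± 0.47), against 3.45% of all probes, so the presence of calls in the nanotube comparison and their absence in the asbestos comparison was not itself shown to differ. The difference for Oas1a was -0.30 ± 0.58 and that for Mx1 -0.96 ± 0.87.

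Between LFA and NTL, which differ in material and in dose, 0 of 39 genes were called, where 0% of all probes were, and 0 had an unadjusted p under 0.05 by limma, against 1.55% of all probes. The differences ran from -0.45 (Ifit2) to 1.03 (Ifit1, 1.03 ± 0.59), and that of Oas1a was 0.15 ± 0.41. With 4 arrays a group these errors leave room for differences between the materials, and a p above the threshold does not show that they act alike.

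Of 19 interferon genes listed, 15 were on the array and 11 were tested, and 0 of these were called against control. In LFA 2.22% of all probes were called higher and 1.72% lower, and in NTL 3.63% and 3.18%. The medians were -0.47 in LFA and -0.33 in NTL, where all probes tested had -0.28 and -0.25. Relative to the control mean, the tested genes averaged -0.23, 0.73, -0.21 and -0.28 on control arrays 1 to 4, highest on control 2. Ifnb1, the first type I interferon made by most cells, was not well above background on any array. Ifng, the type II interferon of T and NK cells, was well above background on 15 arrays and changed by 0.99 ± 0.59 in LFA and 0.60 ± 0.59 in NTL (adjusted p = 0.314 and 0.591, limma). The Ifna genes are closely related to each other, and whether their probes share signal was not tested.

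Genes of nucleic acid sensing upstream of interferon were called higher for 2 of 16 in LFA and 5 of 16 in NTL. The shares of all probes were 2.22% and 3.63%. The medians of these 16 genes were 0.89 and 0.95, and 3 were lower in each group, down to -0.74 and -0.88, with 0 called lower. Ikbke, a kinase that activates IRF3, rose by 1.42 ± 0.29 and 1.58 ± 0.29, and Adar, the editor of double-stranded RNA, by 1.08 ± 0.24 and 1.59 ± 0.24. In NTL Irf5 rose by 1.43 ± 0.37 and the gene for the DNA sensor cGAS (Cgas, E330016A19Rik on the array) by 1.24 ± 0.36. Of 42 other interferon-induced genes listed, 41 were tested, 5 rose in LFA and 4 in NTL, against the same shares of all probes. Their medians were 0.62 and 0.64, and 7 in LFA and 8 in NTL were lower, down to -0.71 in each, with 0 called lower. Trim30a rose by 1.66 and 1.60, Socs3, an inhibitor of cytokine signalling, by 1.55 and 1.48, Phf11 by 1.26 and 1.501, and Ifi30, a lysosomal thiol reductase, by 1.02 and 1.30. The medians of these lists were lower than those of the 39 genes, and no test of the difference was made.

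**Figure D5:**
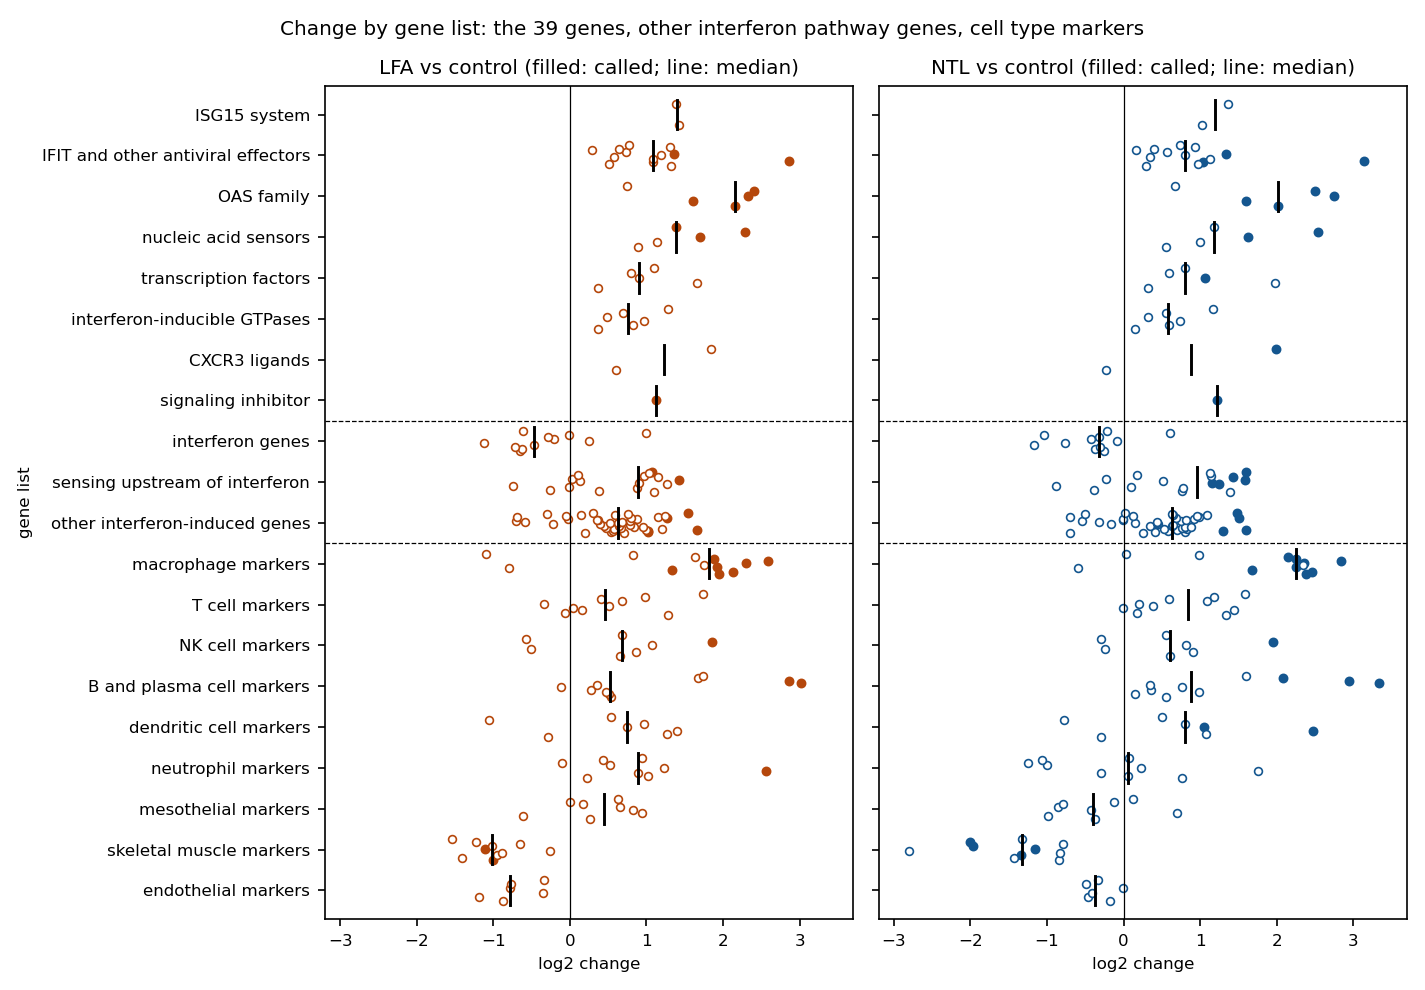
Log2 change against control (x axes) of every tested gene of each list (y axis) in LFA (left) and NTL (right), with filled points for called genes and a black line at the list's median. Above the upper dashed line are the 39 genes by role, with the OAS family at medians of 2.16 and 2.01. Then come the other interferon pathway genes, with the interferon genes at -0.47 and -0.33, where all probes tested had -0.28 and -0.25. Below the lower dashed line are the cell type markers, and liver transcripts and the receptor and kinase list are left out.

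Markers of some cell types moved with the same groups. Of 12 macrophage markers 7 rose in LFA and 8 in NTL, where 2.22% and 3.63% of all probes were called higher. The medians were 1.82 and 2.25, and 0 markers were called in SFA or NTS, where 0% of all probes were. In LFA 2 of the 12 were lower, down to -1.10, and in NTL 1 was (-0.60), with 0 called lower. The mean log2 signal of this list was 1.24 to 1.502 on control arrays, 2.07 to 3.23 on LFA arrays and 2.93 to 3.14 on NTL arrays, against 1.004 to 1.55 on SFA and 1.05 to 1.54 on NTS arrays. The high-affinity IgG receptor Fcgr1 rose by 2.59 ± 0.52 and 2.84 ± 0.52, and Cd68 by 1.95 ± 0.34 and 2.39 ± 0.34. Their part in the changes of the 39 genes was not tested. In a bulk sample more cells of a type and more RNA per cell cannot be told apart.

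Relative to the control mean, the macrophage list stood at 1.18, 1.91, 0.76 and 1.63 on the LFA arrays and 1.82, 1.61, 1.83 and 1.78 on the NTL arrays. It stood at -0.08, -0.06, -0.04 and 0.18 on the control arrays, 0.02, -0.31, 0.01 and 0.24 on the SFA arrays and 0.08, -0.04, 0.22 and -0.27 on the NTS arrays. LFA 2 and LFA 4 were the highest LFA arrays for this list and for the mean of the 39 genes, in that order, whereas LFA 1 and LFA 3 changed places. SFA 3 and control 2, the highest of their groups for the 39 genes, were not so for the macrophage list. For the T cell list SFA 3, LFA 2 and NTL 4 were the highest of their groups, at 0.69, 0.89 and 1.11. For the NK cell list SFA 3 and NTL 4 were, at 0.88 and 1.01. Control 2 and NTS 4, highest of their groups for the 39 genes, were so for neither of these lists. Of 10 T cell markers 0 were called in either group. Of 7 NK cell markers tested Gzmb rose in both (1.85 and 1.95), and 2 were lower in each group. Of 10 B and plasma cell markers 2 rose in LFA and 3 in NTL, led by Jchain (3.02 and 3.34), and 1 was lower in LFA. In NTL 2 of 7 dendritic cell markers rose, Itgax by 2.47 and Flt3 by 1.04, and 2 were lower, down to -0.78. In LFA 0 of these 7 were called, and 2 were lower, down to -1.06. These counts stand against 2.22% of all probes called higher in LFA and 3.63% in NTL. All 10 skeletal muscle markers were lower in both groups, with medians of -1.02 in LFA and -1.33 in NTL, and 2 and 4 of them fell by the rule, where 1.72% and 3.18% of all probes were called lower. By limma 9 of the 10 in LFA and all 10 in NTL had an unadjusted p under 0.05. Among all 36931 probes 8817 in LFA and 8696 in NTL did, of which 2523 and 2837 were higher. Endothelial and mesothelial markers were called in neither group against control. Of 9 neutrophil markers Cxcr2 rose in LFA (2.57), where 1 was lower, and 0 were called in NTL, where 4 were lower. The part of each of these in the interferon-stimulated genes was not tested.

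For 12 of the 39 genes a second probe was on the array, and 10 of these were tested. The second probes of Oas1a and Zbp1 were called in LFA and in NTL, and those of Isg15 and Ifi204 in LFA. Those of Xaf1, Ifih1, Ddx58, Iigp1, Irgm1 and Cxcl9 were not called, as their brighter probes were not, and those of Irf1 and Cxcl10 were too dim to test. Oas1a, Ifit3 and Ifi204 belong to families with closely related members in the mouse genome, and whether their probes also read a relative was not tested.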

How the data were processed

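Diaphragm RNA of 20 mice was labelled with Cy3 and hybridised to Agilent 60K one-colour mouse arrays, 1 array per mouse. The authors scanned the arrays and deposited Feature Extraction output (version 10.7.3.1), whose processed signal is a background-corrected intensity. The deposited table of normalized values is, per its headers, on a log2 scale and holds group means only, so it gives no test and no count of calls, and it was set against the arrays as an alternative source only.

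From the deposited intensity, log2 of the processed signal minus the 75th percentile of the array was computed. Control spots and outlier spots were left out, spots of 1 probe were averaged, and 36931 of 55681 probes that were well above background on at least 4 arrays were tested with limma (version 3.58.1, R 4.3.3) in 1 fit over all 5 groups, with Benjamini-Hochberg adjustment over all tested probes. No spot was saturated. The test was tried on simulated data first. A probe was called at an adjusted p under 0.05 and a change of at least 2-fold. For a probe below background on every array of 1 group, the fold is given as a lower bound.

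Each gene was read from its brightest probe. The genes, the other pathway lists and the marker lists were chosen with earlier results of these data known. Values per array are given for genes called in LFA or NTL against control, in LFA against SFA or in NTL against NTS. In the other lists at most 4 called genes are named by size of change, besides Ifng and Ifnb1, and at most 2 per marker list, and 1 list, of receptors and kinases, is not reported here. Alternatives were quantile normalization, normexp background correction, other filters on dim probes, slide or replicate number as a block, only the groups compared, the mean of a gene's probes, no fold threshold, the methods' test (an analysis of variance with unequal variances) and each array left out in turn. The labels give a replicate number for each array, and the paper states 4 animals per group. The arrays are therefore taken as separate mice, and their number limits the precision. Tables and figures were made with Python 3.11.15.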

Additional observations from a re-analysis of the deposited data

Results flagged for a closer look

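Among the 205 sets of 4 arrays (39 genes, their mean and their median in 5 groups) 11 (5.37%) held 1 array whose gap to its nearest neighbour was a larger part of the group's range than Dixon's critical value allows, a share close to the 1 in 20 groups that chance alone flags. Control 2 stood apart from the other control arrays for 4 genes, with log2 signals of 4.77 for Bst2 (others 3.32 to 3.52), -0.33 for Dhx58 (others -1.89 to -1.72), 4.01 for Ifi204 (others 2.95 to 3.06) and 3.40 for Irf9 (others 2.05 to 2.25). LFA 1 was the low array for Ddx58 at 1.55 (others 2.45 to 2.53) and for Stat2 at 1.97 (others 2.91 to 3.09). SFA 2 was low for Ifit2 at -1.93 (others -0.53 to -0.30) and high for Oasl1 at 1.26 (others 0.49 to 0.58), and SFA 3 was high for Socs1 at 0.22 (others -0.35 to -0.31). NTS 4 was high for Irf1 at 4.21 (others 2.78 to 2.96) and NTL 4 for Oasl2 at 2.88 (others 2.503 to 2.52).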

How the results depend on the processing

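Under quantile normalization the median of all tested probes was -0.08 in LFA in place of -0.28, and -0.09 in NTL in place of -0.25. It called 983 probes higher and 312 lower in LFA, where scaling to the 75th percentile called 821 and 634, and 1559 and 598 in NTL, where that called 1340 and 1176. All 39 genes stayed higher than control in LFA, and 38 in NTL, under every scaling run. The LFA count of 10 called genes became 15 under quantile normalization, 14 under normexp, 14 with the mean of a gene's probes, 12 with probes well above background on all arrays, 9 by the methods' test, 6 with no filter on dim probes, 5 with the slide as a block and 3 in a fit of only the groups compared. Of all probes, 702 were called higher in LFA under normexp and 608 of 55681 with no filter on dim probes. With the slide as a block 607 were, and in a fit of only the groups compared 402. The NTL count of 12 became 19 under quantile normalization and 6 with the slide as a block, and lay between 9 and 15 under the others. The NTL against NTS count of 12 became 16 under quantile normalization and 5 with the slide as a block, and lay between 9 and 14 under the others. Leaving out Oas3, an alternative chosen after seeing the data, gave 9, 11 and 11 in LFA, NTL and NTL against NTS. The LFA against SFA count of 0 became 2 under quantile normalization, 3 under normexp and 2 with probes well above background on all arrays. It became 2 with the mean of a gene's probes and 7 by the methods' test. The difference between length effects gave 1 (Ifi44) by that test. The p of the methods' test covers all 5 groups at once, so it addresses no single comparison. With 1 array left out, the counts ran from 2 to 14 in LFA, 5 to 14 in NTL, 0 to 2 for LFA against SFA and 9 to 19 for NTL against NTS. Over the 34 called changes, the settings with a limma test gave 269 values, of which 219 kept the call, 50 lost it and 0 reversed. The methods' test is not counted there, and it lost further calls, among them Dhx58 in LFA and Ifit3, Dhx58 and Cxcl10 in NTL. The fits without 1 array gave 680 values, of which 558 kept the call, 122 lost it and 0 reversed. With the replicate number as a block (replicate block) the counts were 8, 10 and 11 in LFA, NTL and NTL against NTS. Arrays with the same number did not deviate together in the median (correlation -0.09 over 40 pairs, from -0.68 to 0.69, against -0.01 for other pairs). For arrays on the same slide the median was -0.07, against -0.02 for other pairs, although the slide as a block lowered the counts. With such wide ranges the measure cannot exclude a pairing by number. SFA and NTS against control and LFA against NTL gave 0 called genes in every setting. The causes were not tested. Low signal limits Oas3 and Irf7.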
